A study of Mus musculus with 36 samples.

Results

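Mt1, Mt2, Slc39a14, Slc39a8, Slc39a1, Slc30a1, Slc30a2 and Mtf1, genes for proteins that bind, move and sense zinc, were examined in each mouse. These 8 genes were chosen by name, with earlier results of the same mice known, out of 46893 genes and loci in the count table. Their levels are therefore given as a description, and the tests beside them are those of fits over all genes. The libraries were made from gastrocnemius, a calf muscle, of 36 wild-type C57BL/6 males, 1 library per mouse and 6 mice per group. The mice were 3 to 4 weeks old before they were acclimated to the AIN93G diet and then assigned to groups, and the muscles were taken after 12 weeks. NFD-C mice were sedentary and ate the purified AIN93G diet, and HFD-C mice were sedentary and ate a high-fat diet. The running groups ate the same high-fat diet and had a cage wheel. HFD-U mice ran freely, 8.3 km/day on average, and brakes held HFD-75% mice at 6.3 km/day, HFD-50% mice at 4.2 km/day and HFD-25% mice at 2.1 km/day. No litter, cage or sequencing date was given for a mouse, and every mouse was male, of 1 strain and sampled at 1 age.

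Zinc inside a cell is held at very low free levels by proteins that work together. Metallothioneins, here Mt1 and Mt2, are small cysteine-rich proteins that bind zinc and copper. ZIP transporters, the Slc39a genes, bring zinc into the cytosol, and ZnT transporters, the Slc30a genes, carry it out of the cell or into vesicles. Mtf1 is the transcription factor that senses zinc and binds metal response elements in the promoters of Mt1, Mt2 and Slc30a1. The metallothionein genes are also known to respond to glucocorticoids and to oxidative stress, and Slc39a14 to cytokines.

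The count table places Mt2 and Mt1 side by side on the plus strand of chromosome 8 (GRCm39), at chr8:94899246-94900195 and chr8:94905214-94906955, with 5018 bases between the end of Mt2 and the start of Mt1. Slc39a14 lies on the minus strand at chr14:70540916-70588873. Slc39a8 at chr3:135522644-135594333 and Slc39a1 at chr3:90155497-90160922 share chromosome 3, and Slc30a2 at chr4:134070357-134081795 and Mtf1 at chr4:124696342-124743593 share chromosome 4. Slc30a1 lies at chr1:191638810-191645359. All 8 are annotated as protein-coding genes.

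The promoters of Mt1, Mt2 and Slc30a1 are shown because they are the known targets of Mtf1. Over all 36 mice Mt1 and Mt2 moved together from mouse to mouse while Slc30a1 did not, though for Slc30a1 the 2 sets of libraries described below differed. Each line gives the 250 bases before the RefSeq start site, read on the plus strand of GRCm38.p6, a different build from that of the count table. The Mt1 window is chr8:94178839-94179088, the Mt2 window is chr8:94172368-94172617 and the Slc30a1 window is chr1:191906531-191906780. Capitals mark every match, on either strand, to TGCACNC or TGCGCNC, the core letters of a metal response element, and the 2 patterns cannot match the same bases on 1 strand because they differ at 1 letter.
Mt1: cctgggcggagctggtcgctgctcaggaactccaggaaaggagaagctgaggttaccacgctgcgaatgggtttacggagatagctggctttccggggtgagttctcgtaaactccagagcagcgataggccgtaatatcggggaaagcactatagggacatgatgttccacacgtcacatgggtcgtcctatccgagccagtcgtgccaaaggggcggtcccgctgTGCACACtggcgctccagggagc
Mt2: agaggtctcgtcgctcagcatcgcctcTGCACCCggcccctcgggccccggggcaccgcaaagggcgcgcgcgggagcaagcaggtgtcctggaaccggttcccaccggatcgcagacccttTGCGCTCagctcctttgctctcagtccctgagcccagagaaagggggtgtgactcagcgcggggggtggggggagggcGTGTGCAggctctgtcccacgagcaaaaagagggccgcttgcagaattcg
Slc30a1: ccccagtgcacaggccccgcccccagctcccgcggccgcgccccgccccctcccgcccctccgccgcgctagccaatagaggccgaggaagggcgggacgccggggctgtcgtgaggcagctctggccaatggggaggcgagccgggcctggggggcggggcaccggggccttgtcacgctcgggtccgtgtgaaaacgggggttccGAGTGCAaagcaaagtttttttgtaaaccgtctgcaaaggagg

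The Mt2 window held 3 matches, which begin 223, 128 and 50 bases before the start site. The Mt1 window held 1, which begins 23 bases before it, and the Slc30a1 window held 1, which begins 43 bases before it. Windows were found for 7 of the 8 genes, and among the rest Slc30a2 held 2 matches, Slc39a8 held 1 in 1 of its 2 windows, and Slc39a1 and Mtf1 held 0. Of 32851 mouse windows of this length, 21.4% held at least 1 match and 1.26% held at least 3. A match describes the letters only, and the RefSeq start of Mt1 need not be the start of its gene model in the count table. Bases past the RefSeq start were not searched, and another start would move the window. The 1 match of Mt1 and the 3 of Mt2 are therefore not counts for their whole promoters.

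Libraries held 13060090 to 27981702 counted reads each. Muscle markers, Acta1 and Ckm among them, had the highest sum of all the cell marker lists in every group, a check of the labelled tissue. Adipocyte markers summed to 1.095 to 89.82 CPM (counts scaled to library size with TMM factors) against 82130 to 155500 for the muscle markers. Mice of 1 group differed by 16.3 to 215 times the variance of counting alone. A small set of ribosomal RNA-linked features took 2.013 to 3.805% of counts in all NFD-C libraries and in HFD-C replicates 1 to 4, and 0.4037 to 1.016% in HFD-C replicates 5 and 6 and in every running mouse. This library set therefore cannot be told apart from running, except through those 2 HFD-C mice. All comparisons with HFD-C share the same 6 control mice. In bulk muscle, fewer cells of a type and less RNA per cell cannot be told apart.

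Per unit of gene length, Mt2 and Mt1 were the most abundant of the 8 genes. Their mean level over 35 mice, HFD-50% replicate 4 left aside, was 30.25 FPKM (counts scaled to gene length and library size) for Mt2 and 27.63 FPKM for Mt1. Slc39a1, a ZIP importer of the cell surface, followed with 11.95 FPKM, and Slc30a2, a ZnT exporter that loads vesicles, with 9.836 FPKM. Slc39a14, the ZIP importer that also carries iron and manganese, had 2.146 FPKM, Mtf1 2.139 FPKM and Slc30a1, the ZnT exporter of the plasma membrane, 1.863 FPKM. Slc39a8, the close relative of Slc39a14, had 0.05865 FPKM and was at the edge of detection.

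A single mouse, HFD-50% replicate 4, held levels of Mt1, Mt2 and Slc39a14 that no other mouse came near. Its Mt1 level was 652.3 CPM, against 11.95 to 65.83 CPM in the other 35 mice, which is 20.4 times their median and 9.908 times their maximum. Its Mt2 level was 350.8 CPM, against 5.794 to 43.05 CPM, or 25.21 times the median. Its Slc39a14 level was 188.4 CPM, against 7.91 to 48.96 CPM, or 8.684 times the median. The same library had the lowest Slc30a2 of all 36 mice, at 13.14 CPM against 15.09 to 55.73 CPM, and the lowest Slc39a1, at 14.36 CPM against 23.65 to 35.61 CPM. Mtf1 was the highest of 36 at 21.54 CPM, but only 1.05 times the next mouse. Slc30a1 at 7.121 CPM and Slc39a8 at 0.3474 CPM lay inside the range of the others.

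**Figure D1:**
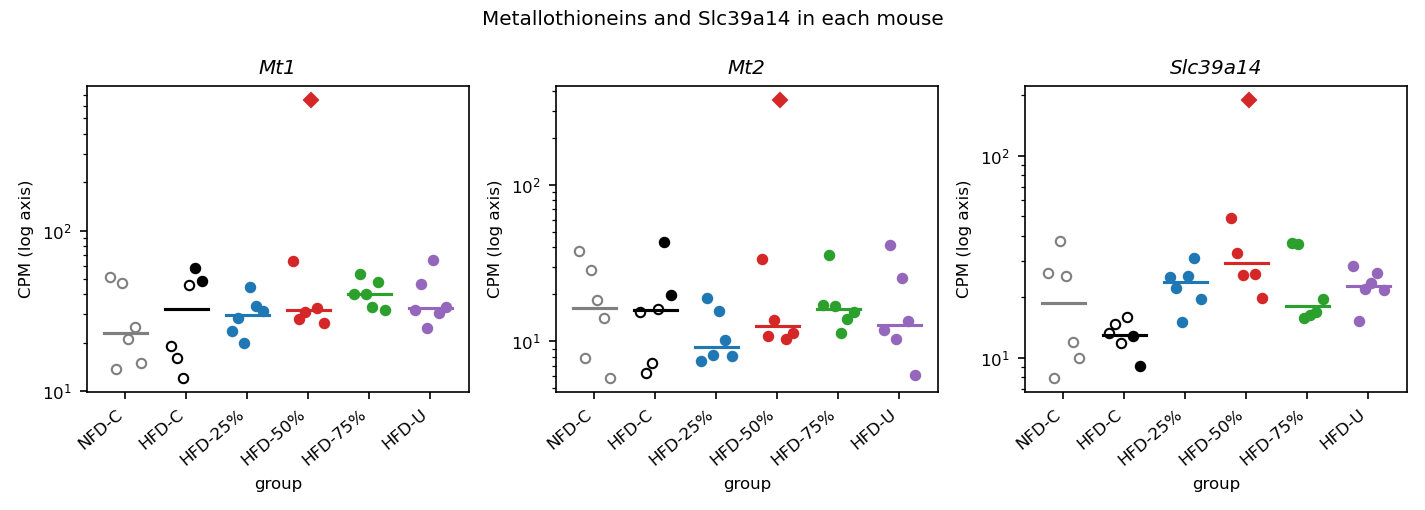
CPM (log axis) of Mt1, Mt2 and Slc39a14 by group, 1 point per mouse, with open points for libraries of the high rRNA-linked set, filled points for the low set, a diamond for HFD-50% replicate 4 and a line at each group's median. The diamond stands at 652.3, 350.8 and 188.4 CPM, above every other mouse, and the Slc39a14 points of 21 of 24 runners lie above all 6 HFD-C points.

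Mt1, with this mouse set aside, did not separate any group. In HFD-C it ranged from 11.95 to 58.72 CPM (median 32.26), and in NFD-C from 13.7 to 51.1 CPM (median 23.06). In HFD-25% the range was 20.01 to 44.2 CPM (median 29.9), and in the 5 remaining HFD-50% mice it was 26.62 to 64.92 CPM (median 31.16). All of these ranges overlap, and the HFD-50% median sits between those of HFD-C and HFD-25%. HFD-75% mice ranged from 31.91 to 53.6 CPM (median 40.1), the highest median, and HFD-U mice from 24.63 to 65.83 CPM (median 32.74). The ranges of neighbours in the order of medians, from HFD-75% down to NFD-C, overlapped at every step.

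Mt2, again without this mouse, also overlapped between groups, at lower counts and in another order of medians than Mt1. Its medians were 16.3 CPM in NFD-C, 16.12 CPM in HFD-75%, 15.78 CPM in HFD-C, 12.64 CPM in HFD-U, 11.38 CPM in HFD-50% and 9.206 CPM in HFD-25%. Within groups the spread was wide, from 6.287 to 43.05 CPM in HFD-C, from 5.794 to 38.12 CPM in NFD-C and from 6.109 to 41.25 CPM in HFD-U. HFD-25% was the narrowest, at 7.537 to 18.94 CPM, HFD-75% ranged from 11.38 to 35.81 CPM and HFD-50% from 10.42 to 33.75 CPM, and all neighbouring groups overlapped. The Mt1 count was 1.859 times the Mt2 count in HFD-50% replicate 4 and 1.118 to 5.483 times, with a median of 2.366, in the other 35 mice. The ratio in the extreme mouse lay inside the range of the others.

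The mean of HFD-50% was set by that mouse. Mt1 averaged 139.3 ± 251.7 CPM (SD, n = 6) in HFD-50% and 36.69 ± 15.97 CPM (SD, n = 5) without it, against 33.28 ± 19.96 CPM (SD, n = 6) in HFD-C. The log2 fold change of Mt1 against HFD-C was 2.09 (SE 0.80; edgeR adjusted p = 0.37) and 0.14 (adjusted p = 0.956) without the mouse. For Mt2 it was 2.02 (SE 0.87; edgeR adjusted p = 0.424) and -0.17 (adjusted p = 0.951) without the mouse, so the direction turned. Against HFD-U the values were 1.86 for Mt1 and 2.01 for Mt2 with the mouse, and -0.09 and -0.19 without it. DESeq2 gave no p for Mt1 or Mt2 in either comparison. In the other running groups Mt1 differed by -0.14 (HFD-25%, SE 0.34), 0.31 (HFD-75%, SE 0.33) and 0.23 (HFD-U, SE 0.36) on the log2 scale. Mt2 differed by -0.65 (HFD-25%, SE 0.40; edgeR adjusted p = 0.786), 0.04 (HFD-75%, SE 0.40) and 0.01 (HFD-U, SE 0.47), so its value in HFD-25% exceeded its standard error but did not pass the test.

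The 2 HFD-C mice of the low rRNA-linked set were the highest of their group in both metallothioneins. Mt1 stood at 48.55 and 58.72 CPM in them and at 11.95 to 45.54 CPM in the other 4 HFD-C mice, and Mt2 at 19.88 and 43.05 CPM against 6.287 to 16.2 CPM. With these 2 mice alone as controls, all running groups but HFD-50% had negative values for both genes. HFD-50%, with replicate 4 included, had 1.40 (SE 1.31) for Mt1 and 1.21 (SE 1.42) for Mt2. Without replicate 4 its means were 36.69 CPM of Mt1 and 16.01 CPM of Mt2. These lay under the means of the 2 control mice, 53.64 and 31.46 CPM. The lowest values were in HFD-25%, where the log2 fold change moved from -0.14 to -0.82 (SE 0.24) for Mt1 and from -0.65 to -1.45 (SE 0.37) for Mt2. Both then had an edgeR adjusted p = 0.346, although their unadjusted p fell under 0.05. A term for the library set gave -0.83 and -1.46 there (edgeR adjusted p = 0.401 and 0.277). In HFD-U the value moved from 0.23 to -0.47 for Mt1 and from 0.01 to -0.80 for Mt2 (edgeR adjusted p = 0.547 and 0.579), and in HFD-75% it moved from 0.31 to -0.38 and from 0.04 to -0.77. None of these passed the adjusted test in either version. The part of library preparation in these values was not tested.

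**Figure D2:**
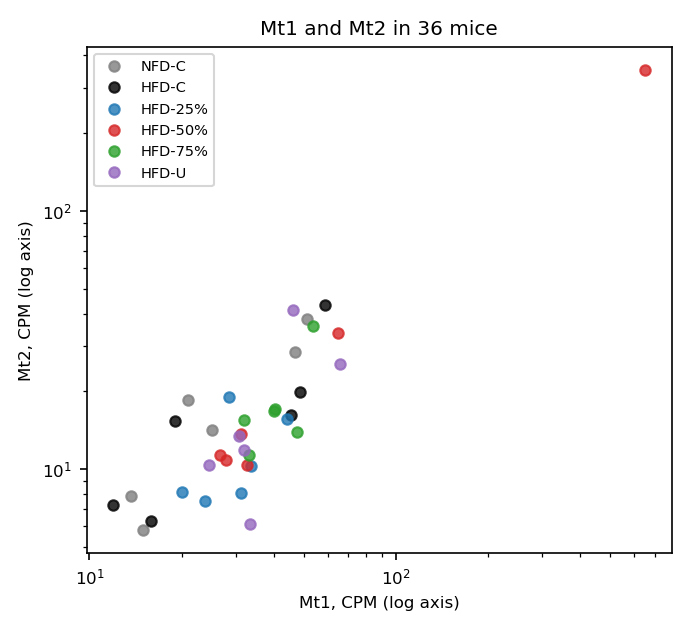
Mt2 against Mt1 in the 36 mice, both in CPM on log axes and coloured by group. The points of all groups share 1 band, and HFD-50% replicate 4 lies alone at its upper end, at 652.3 CPM of Mt1 and 350.8 CPM of Mt2.

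Slc39a14 was the gene of the 8 with the clearest shift in runners. HFD-C mice ranged narrowly from 9.147 to 15.89 CPM (median 13.03). HFD-25% mice ranged from 14.98 to 31.16 CPM (median 23.65), HFD-50% mice from 19.75 to 188.4 CPM (median 29.51), HFD-75% mice from 15.82 to 37.17 CPM (median 18.11) and HFD-U mice from 15.29 to 28.36 CPM (median 22.59). Of the 24 runners, 21 lay above every HFD-C mouse, and the 3 others, 1 each in HFD-25%, HFD-75% and HFD-U, lay above 5 of the 6 HFD-C mice. All 24 lay above both HFD-C mice of the low rRNA-linked set. Only the HFD-50% range was free of overlap with HFD-C among the 4 running groups, a separation that 0.809% of the 12116 genes tested in that comparison showed. The sedentary NFD-C mice spread from 7.91 to 37.78 CPM (median 18.65), with 3 of them above and 1 below the whole of HFD-C.

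The log2 fold change of Slc39a14 against HFD-C was 0.83 (SE 0.17) in HFD-25%, 2.15 (SE 0.48) in HFD-50%, 0.87 (SE 0.24) in HFD-75% and 0.81 (SE 0.16) in HFD-U. These are 1.776, 4.434, 1.832 and 1.755 times the HFD-C level, and without HFD-50% replicate 4 the HFD-50% value was 1.24. None passed the adjustment over all genes in edgeR, with adjusted p = 0.221, 0.121, 0.415 and 0.236. DESeq2 on the same counts gave adjusted p = 0.00693, 0.0131, 0.0749 and 0.00325, so the call in 3 of the 4 groups depended on the tool. For all 24 runners together the log2 fold change was 1.28 (SE 0.40; edgeR adjusted p = 0.203), and it was 0.93 (SE 0.20; edgeR adjusted p = 0.0203) without HFD-50% replicate 4. DESeq2, which replaces outlying counts in groups of this size, gave 0.93 (adjusted p = 0.000655) with all mice. For NFD-C it was 0.62 (SE 0.32; edgeR adjusted p = 1). Against HFD-U, HFD-50% was higher by 1.34 (SE 0.48; edgeR adjusted p = 0.294), and by 0.43 (adjusted p = 0.459) without the mouse.

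Slc39a14 was also the gene of the 8 that passed the dose test, which fitted a line and a curve to distance in the 30 mice fed the high-fat diet (edgeR adjusted p = 0.0483). Its medians did not climb with distance beyond HFD-50%. Over the 24 runners alone the same test gave an adjusted p of 0.568. Leaving out single mice moved the adjusted p of the first test from 0.0356 to 0.108, past the threshold in 21 of 30 cases, and a term for the library set gave 0.173. In the dose test over the 30 mice, 1 of 6 endothelial markers passed the adjustment (edgeR adjusted p = 0.0366), as 0.683% of all genes did. Markers of the other cell types gave 0 after adjustment there. Some markers of other cells also reached an unadjusted p of 0.05 in single running groups against HFD-C in edgeR, and 0 of these passed the adjusted test. In HFD-25%, 3 of 6 endothelial genes were higher and 2 of 5 fibroblast and 1 of 4 adipocyte genes lower, against 6.98% of all genes called. In HFD-50%, 2 of 6 endothelial genes were higher and 1 of 5 fibroblast genes lower, against 10.7% of all genes. Without replicate 4 these were 4 of 6 and 2 of 5, against 9.84% of all genes. In HFD-75%, 3 of 5 fibroblast, 2 of 4 immune and 1 of 5 blood genes were lower. There 1 of 6 endothelial genes was higher, against 5.47% of all genes called. In HFD-U 3 of 4 adipocyte, 1 of 4 immune and 1 of 5 blood genes were lower, against 5.46% of all genes. Muscle and Schwann cell markers gave 0 in these groups. The summed levels overlapped between groups, at 148.6 to 514.7 CPM of endothelial markers in HFD-25% and 153.6 to 269.7 CPM in HFD-C, and their part in the Slc39a14 levels was not tested.

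Slc39a8, a ZIP importer of the plasma membrane, was too scarce to be tested. It had 11 counts in all over the 6 HFD-C libraries, 3 of which had 0, against 81 in NFD-C and, in the order of distance, 50, 42, 50 and 59 in the running groups. HFD-C lay at 0 to 0.2751 CPM (median 0.07058) and the other groups had medians of 0.3718 to 0.6846 CPM. The ranges overlapped in every comparison, and 18 of 24 runners were above all HFD-C mice. Since 3 counts are worth 0.107 to 0.23 CPM at these depths, the HFD-C level is no more than a few reads per library. HFD-75% also had 1 library at 0, and the highest value, 1.793 CPM, was in an NFD-C mouse.

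Slc39a1 differed little between groups. Its group medians lay between 26.59 CPM (HFD-25%) and 31.33 CPM (HFD-U), with HFD-C at 24.36 to 35.61 CPM (median 28.03). The log2 fold changes against HFD-C ran from -0.23 (HFD-50%, SE 0.15) to 0.09 (HFD-U, SE 0.11), and without HFD-50% replicate 4 the HFD-50% mean rose from 24.63 to 26.69 CPM. Slc30a1, a classical Mtf1 target, likewise differed little when all 6 HFD-C mice served as controls. Its medians lay between 8.587 CPM (HFD-75%) and 10.09 CPM (HFD-25%), and its log2 fold changes between -0.03 (NFD-C, SE 0.19) and 0.10 (HFD-75%, SE 0.22). With the 2 HFD-C mice of the low rRNA-linked set alone, it was 0.55 in HFD-25% (SE 0.22; edgeR adjusted p = 0.403), 0.43 in HFD-50% (SE 0.27), 0.54 in HFD-75% (SE 0.30) and 0.54 in HFD-U (SE 0.34). A term for the library set gave 0.42 to 0.54. In HFD-25% both versions had an unadjusted p under 0.05. Mtf1 itself had medians of 15.02 CPM (HFD-50%) to 17.57 CPM (NFD-C), and log2 fold changes of 0.04 (HFD-50%, SE 0.16) to 0.17 (NFD-C, SE 0.13). For these 3 genes the groups overlapped in all comparisons and with all HFD-C mice the smallest edgeR adjusted p against HFD-C was 0.63, for Slc39a1 in HFD-50%.

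Slc30a2 had its lowest median in HFD-C, though the groups overlapped. HFD-C ranged from 16.99 to 36.96 CPM (median 28.55), HFD-75% from 25.75 to 55.73 CPM (median 37.17) and NFD-C from 25.02 to 40.93 CPM (median 36.68). HFD-25% ranged from 15.09 to 49.35 CPM (median 35.47), HFD-U from 18.96 to 50.57 CPM (median 31.02) and HFD-50% from 13.14 to 50.19 CPM (median 30.14). The log2 fold change was 0.46 in HFD-75% (SE 0.20; edgeR adjusted p = 0.875) and 0.37 in NFD-C (SE 0.17; edgeR adjusted p = 1). In HFD-50% it was 0.25 (SE 0.27), and 0.41 without replicate 4.

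**Figure D3:**
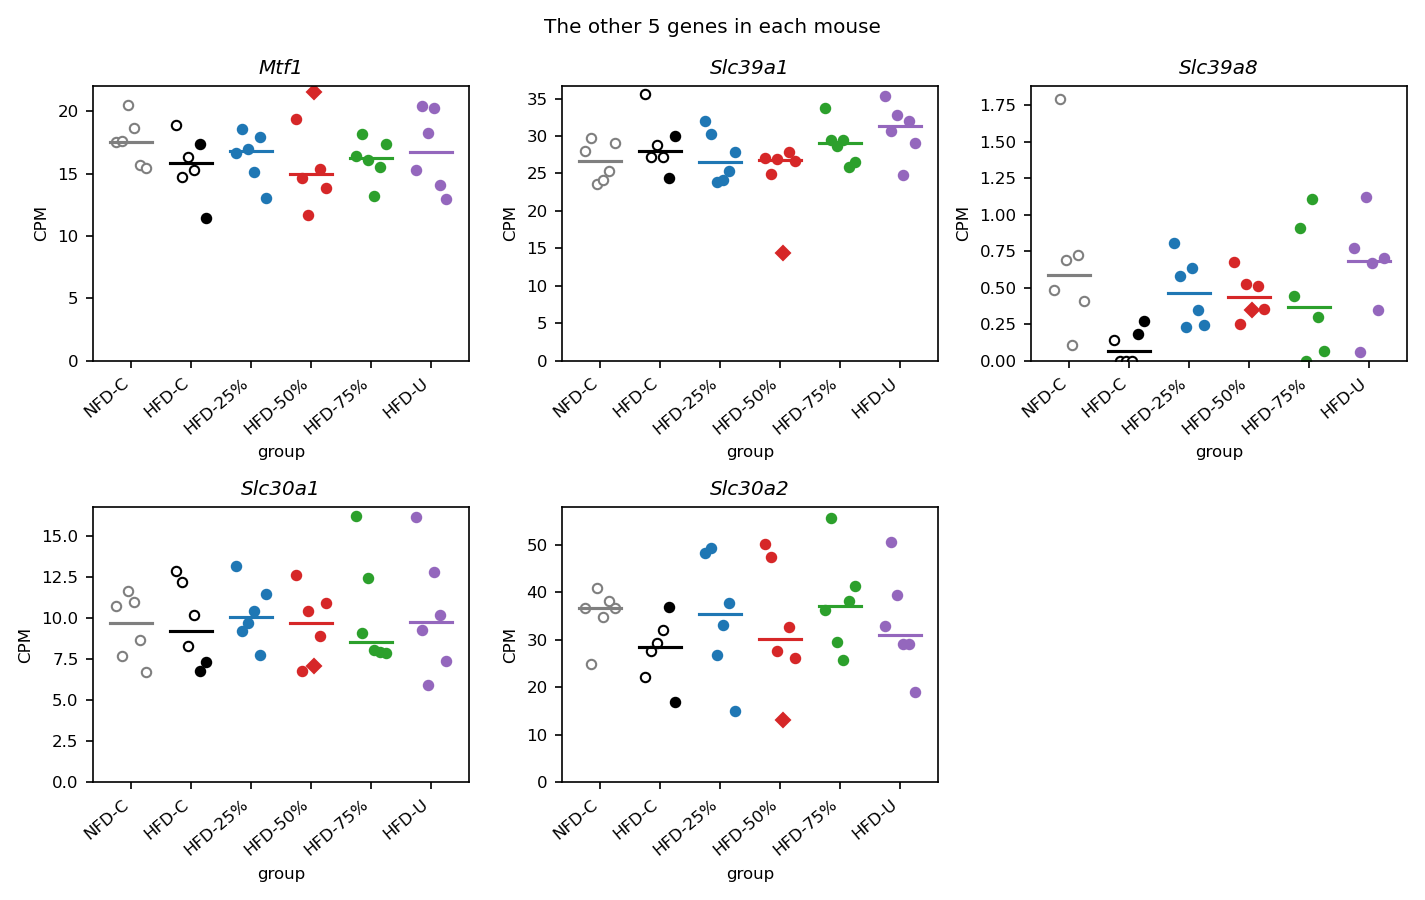
CPM (linear axis from 0) of Mtf1, Slc39a1, Slc39a8, Slc30a1 and Slc30a2 by group, 1 point per mouse, with open points for the high rRNA-linked set, a diamond for HFD-50% replicate 4 and a line at each median. Groups overlap in all 5 panels, and the diamond is the lowest point for Slc39a1 (14.36 CPM) and Slc30a2 (13.14 CPM).

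**Figure D4:**
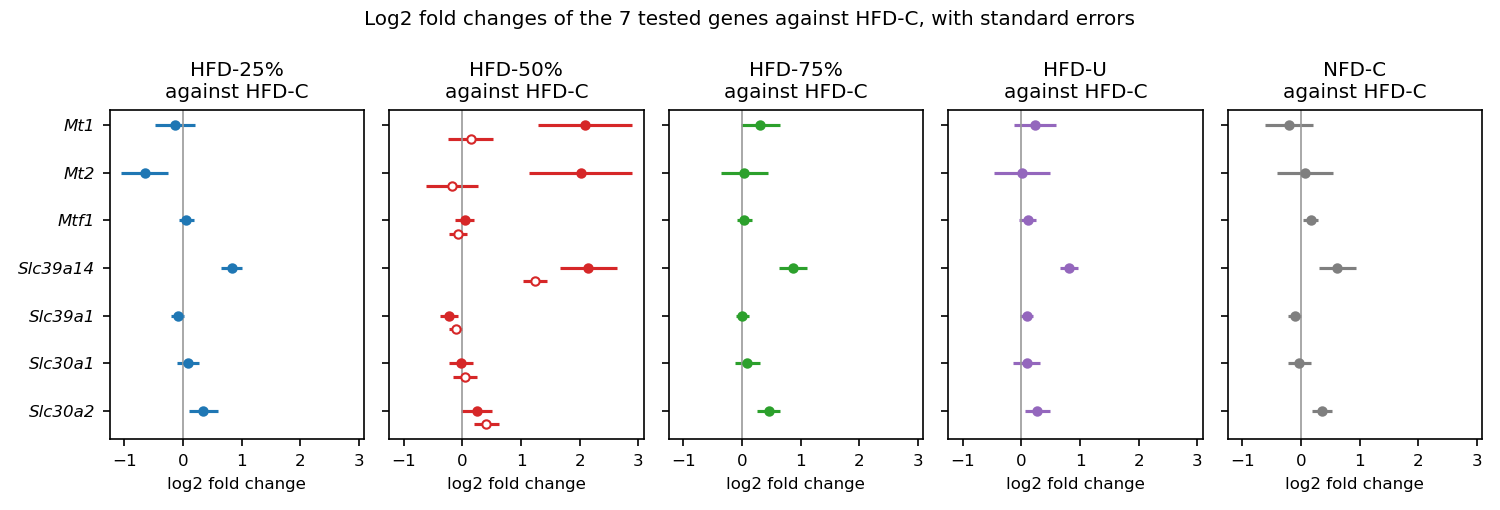
Log2 fold change against HFD-C with its standard error (edgeR) for the 7 genes tested, 1 panel per group, and open points for HFD-50% without replicate 4. Mt1 and Mt2 fall from 2.09 and 2.02 to 0.14 and -0.17 when that mouse is left out, and Slc39a14 falls from 2.15 to 1.24.

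At a threshold of 0.05 without adjustment, 3 of the 7 tested genes were called in HFD-50% against HFD-C, where 10.7% of all genes were. For HFD-75% it was 2 genes (5.47% of all genes), for HFD-25% 1 gene (6.98%) and for HFD-U 1 gene (5.46%). These were Slc39a14 each time, with Mt1 and Mt2 in HFD-50% and Slc30a2 in HFD-75%, all higher. Without HFD-50% replicate 4, 1 of the 7 was called in HFD-50% against HFD-C, Slc39a14 (9.84% of all genes). In NFD-C it was 1 gene, Slc30a2 (4.12% of all genes), and for all runners together 1, Slc39a14 (9.27%). HFD-50% differed from HFD-U in 4 genes (12.4%), with Mt1, Mt2 and Slc39a14 higher and Slc39a1 lower. The dose test over 30 mice was passed by 2 genes, Mt1 and Slc39a14 (12.2%), and that over 24 runners by 3, Mt1, Mt2 and Slc39a14 (8.49%).

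After adjustment, 0 of the 7 were called in edgeR in any comparison of groups. The share of all genes called against HFD-C was 0.0082% in HFD-25%, 0% in NFD-C and the remaining running groups, 0.3% for all runners and 0.00844% for HFD-50% against HFD-U. The dose test called 1, Slc39a14, over 30 mice (0.683% of all genes) and 0 over 24 runners (0.0419%). The genes were picked with such values known, so nothing is read from these counts.

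The rest of the zinc genes gave no calls. Among 2 further metallothioneins, 11 further ZIP genes and 8 further ZnT genes, 13 to 14 were abundant enough to be tested, and 0 reached an unadjusted p of 0.05 in edgeR in any of the 9 comparisons. DESeq2 and every alternative fit also gave 0 at an adjusted p. The 3 most abundant were Slc30a9, with a mean of 24.28 FPKM, Slc39a7, which releases zinc from the endoplasmic reticulum, with 18.17 FPKM, and Slc39a13, which serves the Golgi, with 6.685 FPKM. In HFD-50% against HFD-C their log2 fold changes were -0.18, -0.08 and -0.12. The brain metallothionein Mt3 averaged 1.094 FPKM, and Mt4 was near 0.

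HFD-50% replicate 4 stood apart in more than zinc genes. In this library 77 genes were at least 2-fold above all 35 others and 127 at least 2-fold below, against at most 9 and 26 in any other library, though its depth of 17001956 counts was ordinary. Fold values over the gene lists below describe this 1 mouse and have no replicate. Genes known to be induced by glucocorticoids were raised in part. Cebpd was 472.8 CPM against at most 194.1 CPM elsewhere, Errfi1 173.7 against at most 57.99 CPM, and Ddit4 221.7 against at most 216.4 CPM. Cebpb was also the highest, at 226.5 against at most 199.8 CPM. Tsc22d3 (495.3 CPM) and Pdk4 (3060 CPM) were each the 2nd highest, Zbtb16 the 3rd, Nfkbia the 5th and Per1 the 8th. Fkbp5, a widely used glucocorticoid readout, was 190.3 CPM, the 9th highest. Klf9 and Sgk1 lay under the median of the other mice, at 0.925 and 0.762 times its value, and Dusp1 at 66.17 CPM was the 5th lowest. Of the 13 genes of that list, 4 were highest in this mouse. The share of all genes that were highest in this mouse was not counted. The counts of highest genes given for this list and the next have no background, and nothing is read from them.

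Among 9 targets of NRF2, the factor that answers oxidative stress, 4 were highest of 36 in this mouse. Hmox1, which breaks down haem, was 42.96 CPM against at most 20.37 CPM, Srxn1 116.9 against at most 49.52 CPM, and both glutathione synthesis genes, Gclc (50.31 CPM) and Gclm (47.01 CPM), exceeded all other mice. Osgin1 at 42.03 CPM was 2nd and Txnrd1 at 87.48 CPM was 5th, while Nqo1 at 23.45 CPM and G6pdx at 1.968 CPM lay under the median, at 0.883 and 0.667 times its value. Among cytokine genes, Il6ra (21.36 CPM), Osmr (25.76 CPM) and Lcn2 (6.079 CPM) were highest of 36, and Socs3, a direct STAT3 target, was 2.605 CPM against a median of 2.668 CPM. For iron, the transferrin receptor Tfrc was 18.24 CPM, under the lowest other value of 55.52 CPM, and the ferritin gene Ftl1 was the highest at 320.2 CPM. The collagen genes Col1a1 (2.2 CPM) and Col3a1 (5.673 CPM) were far under the lowest other values, 14.95 and 37.13 CPM. The fibroblast markers summed to 193.2 CPM, the lowest sum of 36, the muscle markers to 99210 CPM, and the immune markers to 25.88 CPM, inside the range of the others. Muscle genes were not all at their usual level, with Acta1 the lowest of 36 at 14190 CPM. The part of cell makeup in the zinc gene levels of this mouse was not tested.

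**Figure D5:**
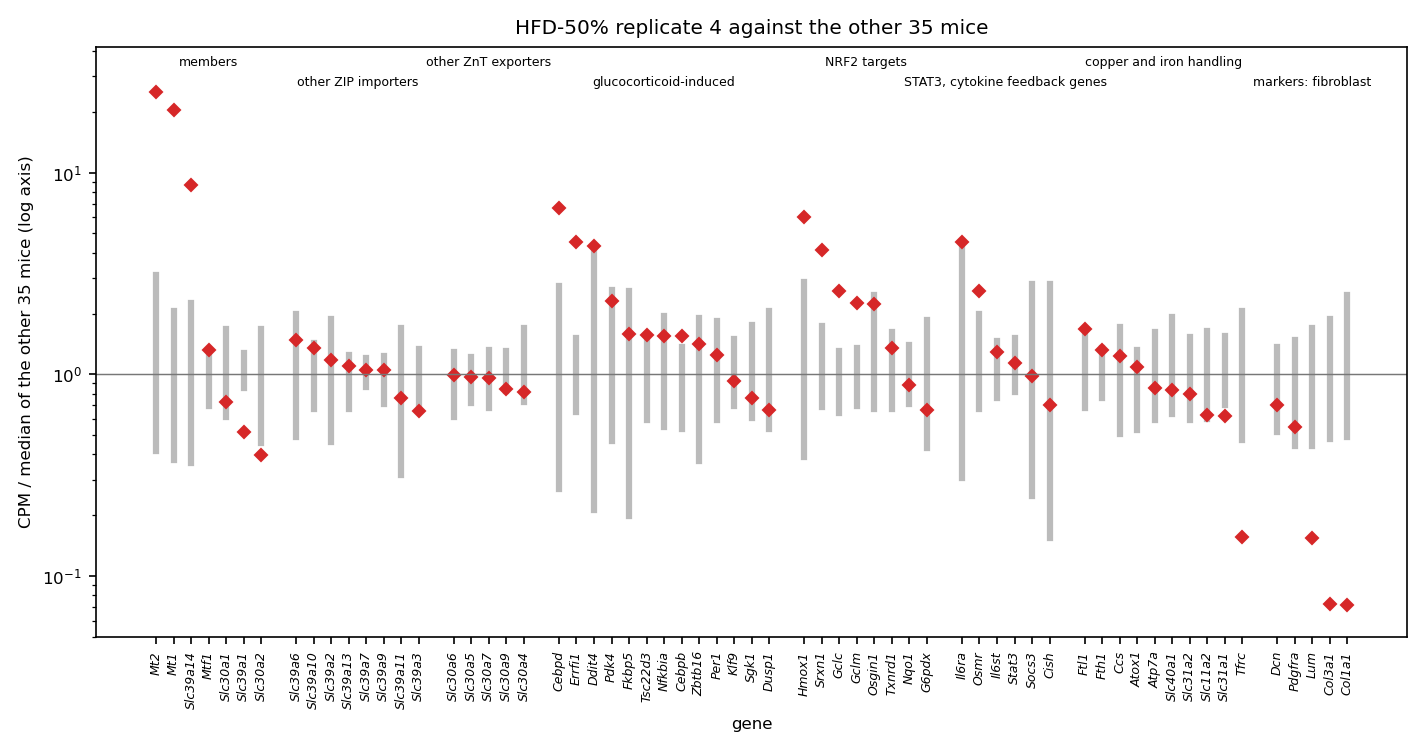
Level of each gene in HFD-50% replicate 4 divided by the median of the other 35 mice (red diamonds, log axis), with a grey bar for the range of those 35, for genes whose counts averaged 25 or more, grouped by list. Mt2, Mt1 and Slc39a14 lie at 25.21, 20.4 and 8.684, far above their bars, Slc39a1 (0.516), Slc30a2 (0.396) and Slc39a3 (0.654) lie below theirs, the remaining ZIP and ZnT genes lie between 0.732 and 1.482, and Tfrc, Lum, Col3a1 and Col1a1 lie far below theirs.

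In the comparison of HFD-50% with HFD-C over all mice, including replicate 4, none of the 4 further lists had a gene past the adjustment. Fkbp5 had 1.52 (SE 0.36; edgeR adjusted p = 0.134) on the log2 scale, Zbtb16 0.68 (SE 0.26), and Dusp1 had -0.76 (SE 0.22). Nqo1 had -0.36 (SE 0.10), Osgin1 had 0.65 (SE 0.18) and Hmox1 1.39 (SE 0.49). Cish had 1.12 (SE 0.38), Il6ra 1.41 (SE 0.49), Osmr 0.63 (SE 0.24) and the copper chaperone gene Ccs 0.42 (SE 0.19), while Tfrc had -0.61 (SE 0.29) and Ftl1 0.25 (SE 0.16). Of 13 glucocorticoid, 8 NRF2, 6 cytokine and 10 copper and iron genes tested, 5, 4, 3 and 1 reached an unadjusted p of 0.05 in edgeR, where 10.7% of all genes did. The median log2 fold change was 0.03, 0.25, 0.35 and -0.002 in these lists and 0.01 over all genes. Several of these values rested on replicate 4. Without it Hmox1 had 0.69 (SE 0.36), Ftl1 0.11 (SE 0.13), Il6ra 1.04 (SE 0.46), Osmr 0.42 (SE 0.21), Osgin1 0.48 (SE 0.14) and Tfrc -0.41 (SE 0.15), while Fkbp5 stayed at 1.54 (SE 0.38; edgeR adjusted p = 0.149), Cish at 1.23 (SE 0.38), Nqo1 at -0.35 (SE 0.10) and Dusp1 at -0.73 (SE 0.23). The counts were then 4, 3, 2 and 2, against 9.84% of all genes, and again 0 after adjustment.

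The genes were next compared across mice after the mean of each group had been taken away, on log2(CPM + 0.5), so that only differences between mice of 1 group counted. The 28 pairs of the 8 genes, and Mt1 and Mt2 with each of the 13 glucocorticoid-induced genes, made 54 pairs, and 15 had an adjusted permutation p of at most 0.05 (permutation of mice within groups, two-sided, adjusted over the 54). Mt1 and Mt2 went together most closely, with Pearson r = 0.908 and Spearman rho = 0.839 over 36 mice (permutation p = 1e-05 for both, the smallest they can give, adjusted p = 0.00054). Without the 2 mice farthest from the Mt1 median, HFD-50% replicate 4 and HFD-C replicate 5, r was 0.819. Within the 26 libraries of the low rRNA-linked set, which include HFD-50% replicate 4, r was 0.908, and within the 10 of the high set 0.87.

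Slc39a14 also went with the metallothioneins, but this rested in good part on HFD-50% replicate 4. With Mt1, r was 0.713 and rho 0.544 (permutation p = 0.00136 and 0.00231, adjusted p = 0.0105 and 0.0156), r was 0.53 without the 2 farthest mice, and 0.442 (adjusted permutation p = 0.0811) without HFD-50% replicate 4 alone. With Mt2, r was 0.688 and rho 0.559 (permutation p = 0.00203 and 0.002, adjusted p = 0.0137 and 0.0154), and r was 0.433 (adjusted permutation p = 0.0848) without that mouse. Both pairs were positive in each library set, with r = 0.817 and 0.725 for Mt1 and 0.743 and 0.8 for Mt2 in the low and the high set. The low set includes HFD-50% replicate 4, so its values are not free of that mouse.

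Mtf1 went with Mt2 rather than with Mt1 in the test. For Mt2, r was 0.61 and rho 0.618 (permutation p = 0.00085 and 0.00044, adjusted p = 0.00765 and 0.00648), and r was 0.514 (adjusted permutation p = 0.0461) without HFD-50% replicate 4. For Mt1, r was 0.406 (permutation p = 0.0589, adjusted p = 0.15), and the difference between the 2 was not tested. Slc39a14 and Mtf1 had r = 0.508 (adjusted permutation p = 0.0163), and 0.366 (adjusted permutation p = 0.0829) without HFD-50% replicate 4. Slc30a1, the exporter whose promoter is shown above, had r = -0.0571 with Mt1 and 0.00162 with Mt2 (adjusted permutation p = 0.897 and 0.993). The library sets differed here. In the 26 libraries of the low set r was -0.0799 with Mt1 and -0.048 with Mt2. In the 10 of the high set it was 0.565 and 0.743, and this difference was not tested. Slc39a1 ran against Mt1 with r = -0.704 (permutation p = 0.00435, adjusted p = 0.0214) and -0.376 (adjusted permutation p = 0.146) without HFD-50% replicate 4. Slc30a2 and Mtf1, at r = 0.361 (permutation p = 0.0689, adjusted p = 0.155), reached 0.67 (adjusted permutation p = 0.00162) without it. With all mice, r for this pair was 0.416 in the low library set, which includes that mouse, and -0.237 in the high set. Further pairs passed only without that mouse, each at an adjusted permutation p = 0.0461. Mt2 with Slc30a2 went from r = -0.0368 to 0.454, Slc39a14 with Slc30a1 from 0.198 to 0.439 and Slc39a14 with Slc30a2 from -0.0395 to 0.407.

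Among the glucocorticoid-induced genes, 5 passed with Mt1 and 4 with Mt2. The share of all genes with an r of this size was not counted, so these counts have no background and are given as a description. Those that passed with Mt1 also without HFD-50% replicate 4 were Cebpb (r = 0.584, rho = 0.608, adjusted permutation p = 0.00234 and 0.00648), Ddit4 (r = 0.581, rho = 0.556, adjusted permutation p = 0.00234 and 0.00648) and Cebpd (r = 0.64, rho = 0.542, adjusted permutation p = 0.0068 and 0.00853). Without that mouse these were 0.554, 0.506 and 0.424, each at an adjusted permutation p of at most 0.05. Mt2 had r = 0.575 with Ddit4 (adjusted permutation p = 0.0068), and 0.483 (adjusted permutation p = 0.0461) without that mouse. Cebpd (r = 0.571), Cebpb (r = 0.448) and Tsc22d3 (r = 0.426) also passed with Mt2 (adjusted permutation p = 0.0285, 0.0431 and 0.0431), but not without it, at r = 0.329, 0.334 and 0.261. Tsc22d3, which encodes the glucocorticoid-induced leucine zipper, had r = 0.416 with Mt1 (adjusted permutation p = 0.0466), and 0.232 (adjusted permutation p = 0.284) without that mouse. Errfi1 had r = 0.746 with Mt1 (adjusted permutation p = 0.0199), and 0.38 (adjusted permutation p = 0.146) without it. Fkbp5 had r = 0.226 with Mt1 and 0.287 with Mt2 (adjusted permutation p = 0.339 and 0.181), so this member of the list did not reach the threshold.

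The genes most alike in pattern were ranked by the same Pearson r over 36 mice among 11949 genes whose counts averaged 25 or more, as a description with no test. For Mt1 they were Mt2 (0.908), Cdkn1a (0.816), Maff (0.812), Sik1 (0.764) and Bnip3 (0.761), and for Mt2 they were Mt1, Cdkn1a (0.741), Ywhah (0.731), Sik1 (0.731) and Pop1 (0.724). Each metallothionein was thus the nearest gene to the other, and remained so without HFD-50% replicate 4 (r = 0.816). Cdkn1a, which encodes a cell cycle inhibitor, also stayed among the 5 of both. Maff, Sik1 and Bnip3 then left the 5 of Mt1, and Sik1 and Pop1 left the 5 of Mt2. For Slc39a14 the leading genes were Klf15 (0.788), Gm5785 (0.779), Lrrc58 (0.768), Sesn1 (0.768) and Tent4a (0.768). Without the mouse Pik3r1 (0.813) came first, and of these 5 only Tent4a (0.707) stayed among the leading 5. For Slc30a2 they were Slc16a3 (0.873), the lactate exporter of fast fibres, Tirap (0.836), Prima1 (0.833), Ppp1r3c (0.833) and Faap100 (0.828). Without the mouse Hr (0.841) came first, and only Slc16a3 and Ppp1r3c stayed among the leading 5. Mice and libraries are shared by all of these values.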

How the data were processed

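RNA from gastrocnemius was extracted by the authors and sequenced by Novogene as poly(A)-selected, paired-end libraries. Per the labels, HISAT2 2.0.5 and featureCounts 1.5.0-p3 were used. The deposited values are whole-number counts per gene, not normalized. The labels list mm10, whereas the chromosome names beside the counts are those of GRCm39, so promoters (RefSeq, GRCm38.p6) were read by gene and no coordinates were converted. The 562 loci without a gene name, 0.151 to 0.576% of counts, were kept.

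The 8 genes and all gene lists were chosen with earlier results of these data known. Tests used edgeR 4.0.16 (R 4.3.3): features averaging 25 or more counts in a fit, TMM factors, quasi-likelihood F-test, Benjamini-Hochberg adjustment over all genes of the fit, in a fit of the groups compared. Slc39a8 did not reach this minimum. A dose response used a linear and a quadratic term of distance. FPKM uses the deposited gene lengths. Relations across mice used 100000 permutations within groups (numpy 2.4.6). The named genes were the 8, the 3 most abundant other zinc genes and any with an unadjusted p of at most 0.05 against HFD-C, the 5 most alike, and of each further list the 3 with the smallest p in HFD-50% plus Fkbp5. Genes named in HFD-50% replicate 4 outside this rule, and Pik3r1, Hr, Mt3 and Mt4, were picked once their values were known. A fit of the further lists without that mouse was added after seeing the data.

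Alternatives were DESeq2 1.42.0, no minimum count, RLE factors, a term for the library set, HFD-C libraries of 1 set, 1 fit over all groups, a block for the mouse number, other pseudocounts and leaving out each mouse. Same-numbered mice deviated together in all 6 pairs in HFD-U against HFD-C (correlations 0.1386 to 0.5369) and in 1 to 5 pairs elsewhere. The test was checked on simulated data. The p-values measure the spread between separately labelled mice.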

Additional observations from a re-analysis of the deposited data

Results flagged for a closer look

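In groups of 6, the value farthest from the rest was looked at by Dixon's gap test for each of the 8 genes, 48 groups in all, of which 7 had an outlying mouse, and chance gives about 1 in 20. Of the 7, 4 were HFD-50% replicate 4. This mouse was the highest of its group for Mt1 at 652.3 CPM (next 64.92 CPM), for Mt2 at 350.8 CPM (next 33.75 CPM) and for Slc39a14 at 188.4 CPM (next 48.96 CPM), and the lowest for Slc39a1 at 14.36 CPM (next 24.93 CPM). Mt2 was also set apart in HFD-75% replicate 2 at 35.81 CPM (next 17.13 CPM) and in HFD-C replicate 5 at 43.05 CPM (next 19.88 CPM). Slc39a8 was set apart in NFD-C replicate 2 at 1.793 CPM (next 0.7219 CPM), which is 39 counts.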

How the results depend on the processing

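No comparison of groups called any of the 7 tested genes in edgeR after adjustment, and the alternatives called 1 gene in some, Slc39a14 each time. DESeq2 called it in HFD-25%, HFD-50%, HFD-U and all runners (1 gene each), edgeR without a minimum count in HFD-25%, HFD-50% and HFD-U (1 each), and 1 fit over all groups in HFD-50% (1). In these and the other settings its log2 fold change stayed positive, at 0.81 to 1.08 in HFD-25%, 1.63 to 2.39 in HFD-50%, 0.80 to 1.11 in HFD-75% and 0.81 to 1.05 in HFD-U. DESeq2 gave no p for Mt1 and Mt2 where HFD-50% was 1 of 2 groups compared and in both dose tests. The dose test called 1 gene, and 0 with a term for the library set or with HFD-C libraries of the low set alone. Leaving out each mouse in turn gave 0 to 1 genes in that test and 0 to 1 for all runners, where HFD-50% replicate 4 made the difference. Leaving out each mouse in turn, the HFD-50% log2 fold change of Mt2 against HFD-C ran from -0.17 to 2.50, and against HFD-U that of Mt1 ran from -0.087 to 2.08 and that of Mt2 from -0.19 to 2.43, each lowest and negative without HFD-50% replicate 4 alone. With the mouse number as a replicate block, the count of called genes was 0 in every comparison of groups and 1 in the dose test over 30 mice, as without it. The adjusted p of Slc39a14 in HFD-U, where the numbers paired, was 0.11 with the block. The other zinc genes gave 0 in each fit. With HFD-C libraries of the low set alone, Mt1 and Mt2 were at -0.82 and -1.45 in HFD-25% and Slc30a1 at 0.43 to 0.55 in the running groups, and none passed the adjustment. Of 54 pairs 15 passed in all mice, 3 in running mice alone and 10 without HFD-50% replicate 4, a choice made after seeing the data. The library set could not enter HFD-50% against HFD-U or the runners' dose test, since every runner is of the low set. The depth limits Slc39a8, with 11 counts over 6 HFD-C libraries.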
